A study of Mus musculus with 12 samples.

Results

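In adult mouse CMs, 184 genes had at least 4 H3K27ac regions that were listed in control CMs and in no overlapping form in RIP140-null CMs, and not a single region of the opposite kind. These genes, called loss-only genes here, were 1.32% of the 13943 protein-coding genes to which any region was assigned. RIP140, encoded by *Nrip1*, is a corepressor that binds nuclear receptors and brings histone deacetylases to their target genes. H3K27ac is the acetylated form of lysine 27 of histone H3. It marks active promoters and enhancers, is written by the coactivators CBP and p300, and is removed by histone deacetylases. A gene served by several enhancers can carry many separate acetylated regions along its introns and flanks, and such clusters are common at genes that define a cell type or respond to signals.

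CUT&RUN was performed with an H3K27ac antibody, and with IgG for background, in CMs from male mice aged 10 to 12 weeks, with 200000 CMs in each experiment. Control mice were *Nrip1* f/f Cre-, and KO mice (Nkx2.5-RIP140KO, cs*Nrip1*-/-) were *Nrip1* f/f Cre+, so both genotypes carried the floxed allele and only the KO mice carried the Cre. There were 3 H3K27ac and 3 IgG replicates per genotype. Nkx2.5, whose name the KO label carries, is active in cardiac progenitor cells long before adulthood. The isolated CMs were concentrated by slow spinning and not by a sort, so other cells could remain.

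The data were 1 list of merged H3K27ac regions per genotype, with 53750 regions in control CMs and 45517 in KO CMs on chromosomes 1 to 19 and X. Control regions were narrower (median 1846 bp) than KO regions (median 2291 bp), and the summed length was 151.3 Mb and 154.2 Mb. A region was called control-only, or lost, when it had not 1 bp in common with a region of the KO list. By this measure 15844 control regions (29.5%) were lost and 9785 KO regions (21.5%) were KO-only, or gained. The targeted gene matched its labels: regions covered 2904 bp of the 7616 bp of the last *Nrip1* exon in control CMs and 0 bp in KO CMs. *Nrip1* itself, with 4 regions lost and 5 gained, was not among the loss-only genes. The lists hold no values per replicate, so the error between replicates is unknown, the intervals below cover only the counting of regions or genes, and no test was made.

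Each region was assigned to the protein-coding gene with the nearest TSS, and the genes were then selected on these counts. All counts of lost regions below are therefore descriptions of what was selected. At least 4 regions were lost at 1168 genes (8.38%), and 984 of these also gained 1 or more. The opposite pattern, 4 or more regions gained and none lost, was found at 25 genes (0.179%). Over all genes, 4820 (34.6%) had more control-only than KO-only regions and 2872 (20.6%) had more KO-only regions. The excess of loss-only over gain-only genes was thus found on a background with more listed regions lost than gained. The paper, which compared pooled read counts within regions, instead reported more regions with increased than with decreased H3K27ac in KO CMs.

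**Figure D1:**
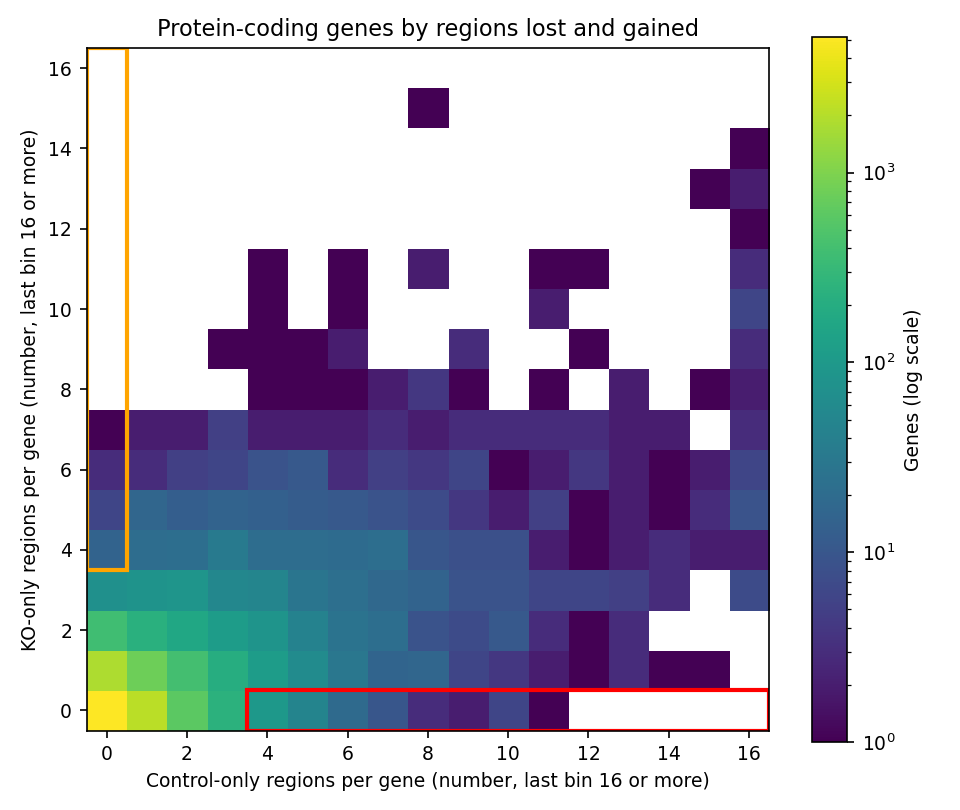
Protein-coding genes by the number of control-only regions (x axis) and KO-only regions (y axis), with the number of genes in each square on a log color scale. The red frame holds the 184 loss-only genes, which end at 11 control-only regions, and the orange frame holds the 25 genes with the opposite pattern.

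The 184 genes held 917 control-only regions among 1912 control regions. The pooled share lost was 48.0% (95% Wilson interval 45.7 to 50.2), compared with 38.5% at the 984 genes that also gained regions and 29.5% over all genes. A loss-only gene had a median of 10 control regions (range 4 to 29) and 4 KO regions (0 to 21). The share lost per gene ranged from 18.2% to 100% with a median of 50%. Of the 184 genes, 95 lost 4 regions, which is the fewest the rule admits, 48 lost 5, 19 lost 6, 10 lost 7 and 12 lost 8 or more. The number of regions per gene shaped who could be selected. Loss-only genes were 1.69% of genes with 4 to 6 control regions, 9.81% of genes with 10 to 14 and 1.72% of genes with 20 or more.

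The gene with the most losses was *Fggy*, which encodes a carbohydrate kinase. It had 28 control regions, of which 11 were lost, and 17 KO regions. The lost regions lay from 210.4 kb upstream of its start to 342.5 kb downstream, and the covered length was 76267 bp in control and 53500 bp in KO CMs. Both lists held a region at an annotated TSS of *Fggy*, though not necessarily the same TSS.

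*Cdc42bpa*, which encodes a kinase activated by Cdc42 that acts on actin and myosin, had the most lost regions in an unbroken run, although other runs of fewer regions spanned more DNA. Its 10 lost regions followed each other with no shared region between them over 188 kb of the gene (chr1:179973596-180161584, GRCm38). They were 504 to 4619 bp wide, 8 had their center in introns of the gene, and the widest lay at an alternative TSS 15.4 kb from the gene's start. At the first promoter a control region of 6859 bp faced a KO region of 3194 bp. In all, 12 control regions covered 24290 bp and 2 KO regions covered 4200 bp (log2 ratio of KO to control -2.53).

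*Smurf1*, a ubiquitin ligase that targets proteins of BMP signaling, lost 10 of 16 control regions. All 10 were intronic and lay 5.21 to 63.1 kb from the gene's start, and 6 of them followed each other with no shared region between them. The shared regions at *Smurf1* were about as long in both genotypes (log2 ratio 0.05), so the difference in covered length (28816 bp in control, 16643 bp in KO) came with the lost regions. *Rgma*, a coreceptor for BMP ligands, lost 10 of 19 control regions, 9 of them upstream of the gene and the farthest 403.3 kb away.

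*Kitl*, which encodes stem cell factor, the ligand of the receptor KIT, lost 10 of 28 control regions. The lost regions were scattered from 105.4 kb upstream to 85.9 kb downstream of its start, among 18 shared ones, and the covered length was 110768 bp in control and 95599 bp in KO CMs. Among the lost regions were 2 wide intronic ones of 4603 and 4354 bp. *Nuak1*, a kinase related to AMPK, also lost 10 of 25, 9 of them intergenic, yet its covered length was larger in KO CMs (76232 bp) than in control CMs (70555 bp). *Ttc27* lost 10 of 16 regions including the one at its TSS (28501 bp covered in control, 9649 bp in KO).

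*Lcorl*, a relative of the nuclear receptor corepressor gene *Lcor*, kept only 3 of 12 control regions, at its promoter and at 2 sites upstream. Of its 9 lost regions 7 lay upstream of the gene, and 6 formed a run of 152.8 kb. *Lama4*, the laminin alpha 4 chain of basement membranes, lost 9 of 15 control regions. A run of 6 of these lay within 29.6 kb in the second part of the gene. The wide domain over the *Lama4* promoter stayed in both lists, and the covered length was 46907 bp in control and 45192 bp in KO CMs. The lost regions of *Lama4* covered 7968 bp, and the shared regions covered 38939 bp in control and 45192 bp in KO CMs.

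**Figure D2:**
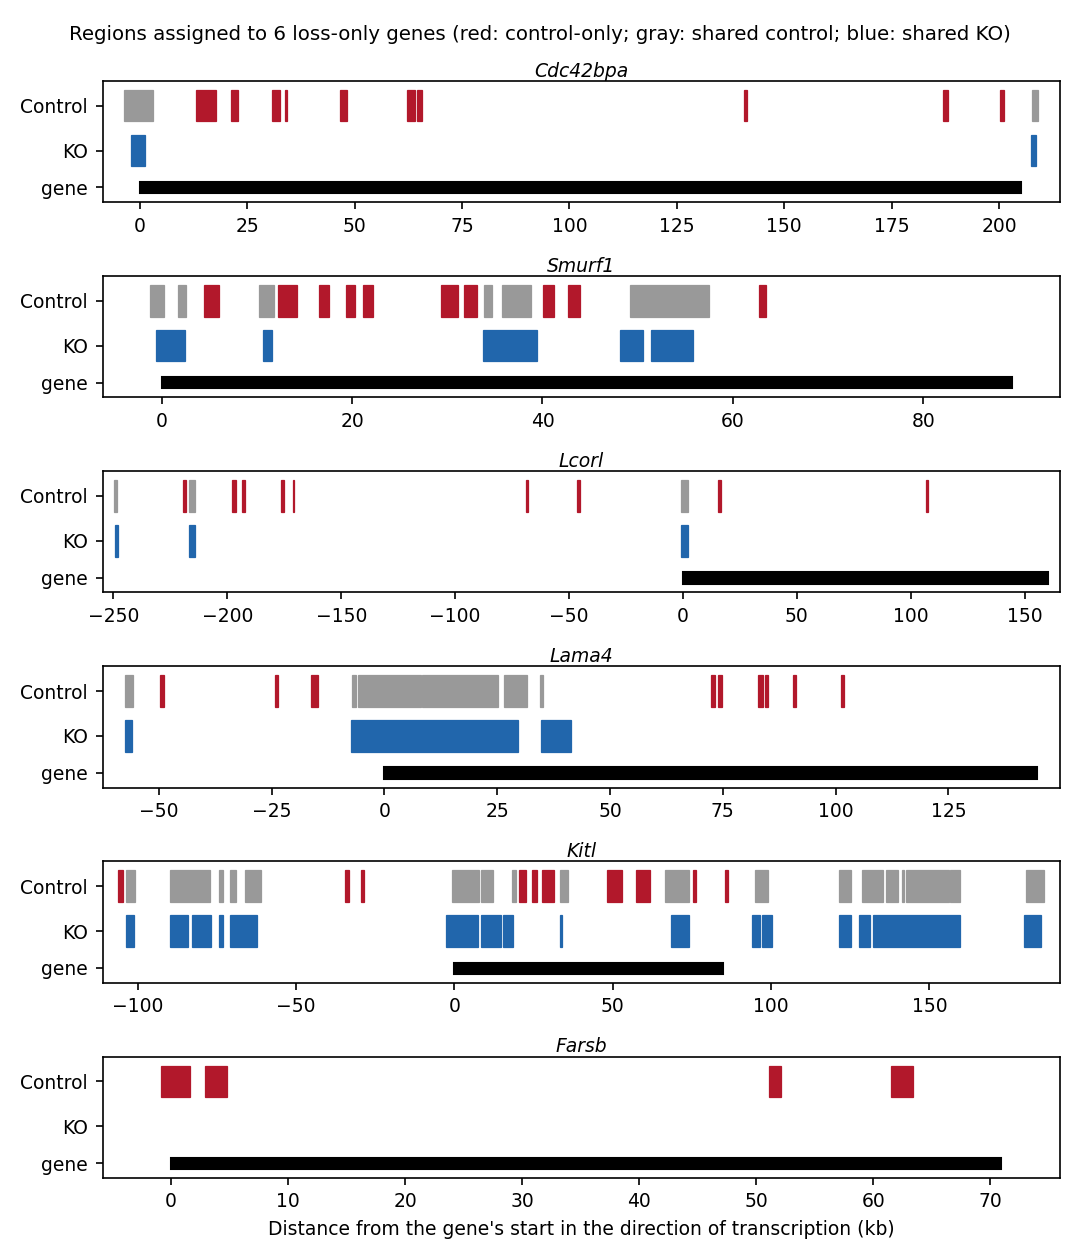
Regions assigned to 6 loss-only genes, drawn by distance in kb from the gene's start in the direction of transcription, with control regions above KO regions and the gene as a black bar. Lost regions (red) followed each other across *Cdc42bpa*, intronic at *Smurf1*, mostly upstream at *Lcorl*, away from the promoter domain at *Lama4*, interspersed with shared regions at *Kitl*, and the only 4 regions at *Farsb*.

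The other genes among the 20 with the most losses lost 7 or 8 regions each. *Epb41l2*, a protein 4.1 family member that links membrane proteins to the cytoskeleton, lost 8 of 16, of which 3 were at annotated promoters of the gene. *Dysf*, which encodes the membrane repair protein dysferlin, lost 8 of 29 and had nearly the same covered length in both lists (120732 bp in control, 120742 bp in KO). *D630036H23Rik* lost 8 of 14, of which 6 had their center in introns of another gene, *Ispd*. *Rasa1*, a GTPase-activating protein for Ras, lost 7 of 15, among them a promoter region of 5714 bp. *Mllt10*, a partner of the histone methyltransferase DOT1L, lost 7 of 10 although its covered length was larger in KO CMs (26757 bp in control, 30635 bp in KO). *Nipbl*, which loads cohesin onto chromatin, lost 7 of 11, all in its introns. *Msra*, a methionine sulfoxide reductase, lost 7 of 10 and had 22287 bp covered in control and 12822 bp in KO CMs. *Col28a1* (7 of 13), *Ypel2* (7 of 18), *Sertad2* (7 of 17) and *Tmem170b* (7 of 15) make up the remainder of the 20. *Foxa2* and *Arrdc4* also lost 7 regions and fell outside the 20 by their smaller lost length.

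**Figure D3:**
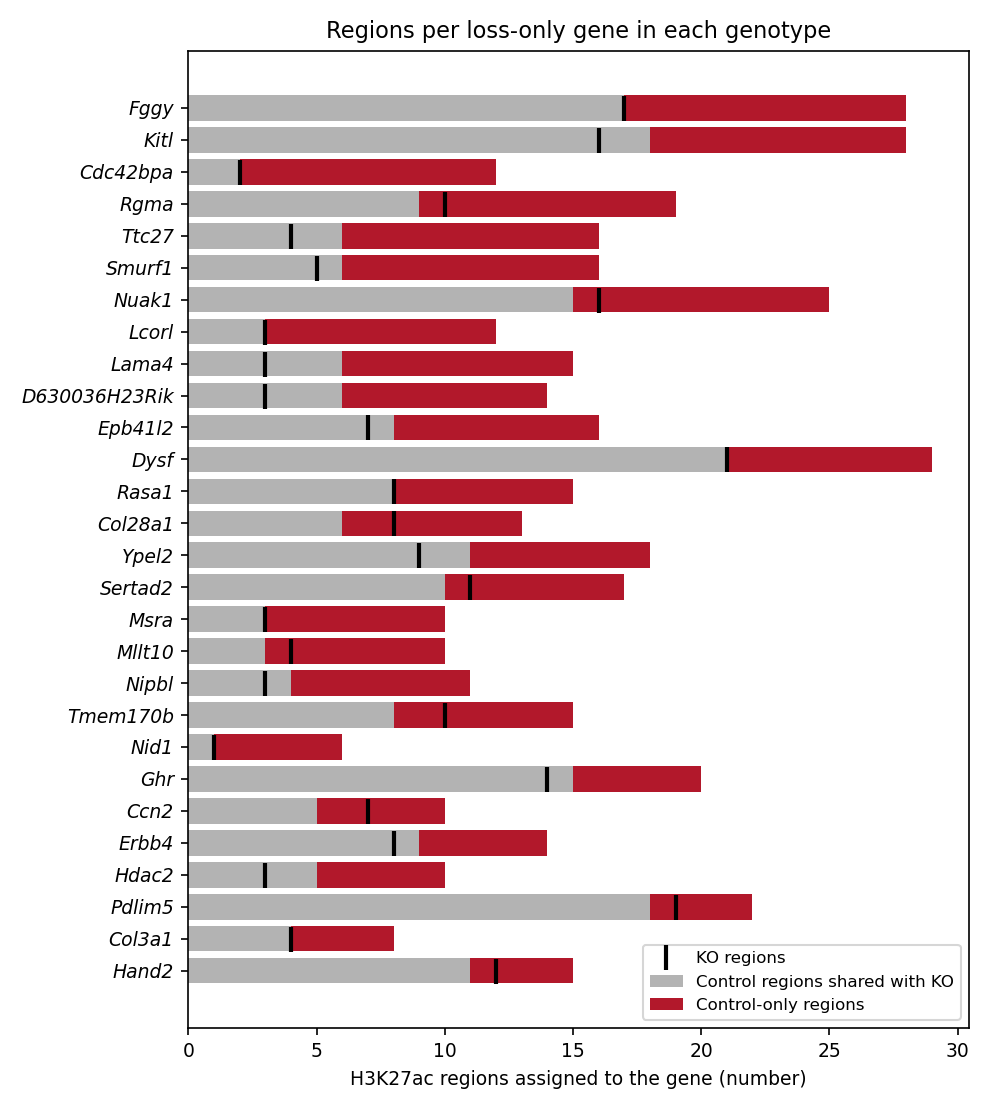
Number of H3K27ac regions at the 20 loss-only genes with the most losses (top) and at further loss-only genes of the pathway and marker lists (bottom, from *Nid1* to *Hand2*). Gray bars are control regions shared with KO CMs, red bars are control-only regions, and the black tick is the number of KO regions, which ran from 1 at *Nid1* to 21 at *Dysf*.

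At 7 genes every control region was lost and no KO region was assigned. *Farsb*, a subunit of phenylalanyl-tRNA synthetase, had 4 control regions that covered 7203 bp, including its promoter. *Prok2*, which encodes the secreted peptide prokineticin 2, had 5 control regions (5191 bp), all 183.3 to 242.6 kb upstream of the gene and none at its TSS. *Map2*, a microtubule-associated protein best known from neurons, had 4 control regions of 2956 bp in sum. The others were *C1qtnf2*, *Fignl1*, *Lctl* and *4930539E08Rik*, each with 4 regions. The share of 100% at these genes therefore rested on few regions of small summed length. The widest single lost regions were found at *Arap2* (7076 bp), *Gbp10* (5882 bp), *Rasa1* (5714 bp), *Rpl36a-ps1* (5185 bp) and *Msr1* (4915 bp). Those of *Gbp10*, *Rasa1* and *Msr1* lay 19676 to 20928 bp from the nearest KO region, whereas the one of *Arap2* ended 1345 bp from a KO region. The region assigned to *Gbp10* had its center in an intron of another gene, *Gm43302*.

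By known role, 129 of the 184 genes were placed in 11 groups, which were drawn up after the genes were known and serve only to order them. Secreted signals and receptors (14 genes) lost 76 of 158 control regions. Besides *Kitl*, *Rgma* and *Prok2* these included *Angpt2*, an antagonist of the endothelial receptor TIE2 (6 of 10 lost), and *Bdnf*, a neurotrophin (4 of 7). Of the 6 lost at *Angpt2*, 4 had their center in introns of another gene, *Mcph1*. The covered length was smaller in KO CMs at each gene of this group that had a KO region.

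Genes of intracellular signaling (24 genes) lost 126 of 273 control regions. Negative regulators of Ras in this group were *Rasa1*, *Nf1* (neurofibromin, 6 of 9 lost) and *Spred2* (4 of 18). Their covered lengths differed: 15812 bp in control and 5870 bp in KO CMs at *Nf1*, but 64014 bp and 67343 bp at *Spred2*. Phosphoinositide enzymes and their adaptors were *Pik3c2a* (4 of 10), *Pik3c3* (4 of 9), *Pik3r5* (4 of 5) and *Mtmr3* (4 of 16). Genes of G-protein and cyclic AMP signaling were *Gng2* (6 of 8), *Grk5*, a kinase that desensitizes G-protein-coupled receptors (4 of 15), *Rgs7* (4 of 7), and the protein kinase A anchors *Akap1* (4 of 12) and *Akap7* (5 of 9). *Fkbp1a*, which encodes the immunophilin FKBP12, lost 6 of 7 regions, with 11339 bp covered in control and 4757 bp in KO CMs.

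Transcription factors and chromatin proteins (18 genes) lost 101 of 217 control regions. *Foxa2*, a pioneer factor of endoderm, lost 7 of 17, all intergenic, and no region lay at its TSS in either list. *Sox9*, a regulator of chondrocytes and of valve development, lost 4 of 10, all 91.9 to 319.6 kb downstream of its start. *Sp8* lost 4 of 5, all upstream. *Ahr*, the aryl hydrocarbon receptor, lost 6 of 17. Chromatin remodeling subunits were *Arid2* (5 of 15) and *Bptf* (4 of 7), and *Zmym2* lost 6 of 11 (21983 bp covered in control, 7482 bp in KO). No gene of this group other than *Mllt10* and *Hand2* had a larger covered length in KO CMs.

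Genes of the matrix and of cell adhesion (10 genes) lost 53 of 96 control regions (55.2%), and only 4 of them had a TSS region in both lists. Cytoskeletal and membrane scaffold genes (17 genes) lost the lowest share of all groups, 81 of 205 (39.5%), and 15 of them had a TSS region in both lists. Besides *Dysf* and *Epb41l2* this group held *Myh9*, a nonmuscle myosin heavy chain (4 of 9), *Msn*, which encodes moesin (4 of 11), *Smtn*, which encodes smoothelin (4 of 7), and *Syne2*, a nesprin of the nuclear envelope (4 of 15). The 4 genes known from immune cells (*Msr1*, *Cd2*, *Klhl6* and *Gbp10*) lost 20 of 30. Of the 6 lost at *Gbp10*, 5 had their center in introns of *Gm43302*. The remaining groups were metabolic enzymes (57 of 119), transporters and channel subunits (40 of 86), RNA processing and translation (38 of 80), ubiquitin ligases and adaptors (36 of 70) and vesicle traffic (24 of 44). Group medians of the log2 ratio of covered length lay between -1.49 and -0.23, and the groups overlapped in their ranges.

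Known cardiac pathways were compared through 21 lists of genes, 570 of which had a region. Of these 570 genes 10 were loss-only (next to 1.32% of all genes), and 12 lists held none, among them calcium cycling (31 genes with a region), fatty acid uptake and oxidation (33), mitochondrial respiration and the TCA cycle (29), and TGF-beta, BMP and Wnt signaling (33). A count of 0 in a list of this size is near the share of all genes, and no fatty acid or mitochondrial gene of the lists lost 4 or more regions, with a median of 2 control regions per gene. More control-only than KO-only regions were found at 8 of 33 fatty acid genes (24.2%, with 3 showing the reverse) and at 18 of 31 calcium cycling genes (58.1%, with 5 showing the reverse), next to 34.6% and 20.6% of all genes. These shares were not matched for the number of regions per gene. The median was 7 control regions for calcium cycling genes and 2 for all genes. Over the 570 listed genes, with a median of 6, 287 (50.35%) had more control-only regions and 114 had the reverse. *Hand2*, a transcription factor of heart development, lost 4 of 15 control regions, all of them 189.8 to 307 kb upstream of its start, and covered 71970 bp in control and 79464 bp in KO CMs. *Pdlim5*, a Z-disc protein, lost 4 of 22. *Erbb4*, the neuregulin receptor of CMs, lost 5 of 14, and *Ghr*, the growth hormone receptor, lost 5 of 20. *Hdac2*, a histone deacetylase found in corepressor complexes, lost 5 of 10 (19866 bp covered in control, 17715 bp in KO).

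The matrix list had the most loss-only genes, 3 of 39, and 26 of its genes (66.7%) had more control-only than KO-only regions, with 4 showing the reverse, next to 34.6% and 20.6% of all genes. Matrix genes had a median of 5 control regions, compared with 2 for all genes, and the shares were not matched for this. *Nid1*, which encodes the basement membrane protein nidogen 1, lost 5 of 6 control regions and had 10679 bp covered in control and 1086 bp in KO CMs (log2 ratio -3.30, the lowest of all loss-only genes with a KO region). *Ccn2*, a matricellular growth factor, lost 5 of 10, and *Col3a1*, the fibrillar collagen III chain, lost 4 of 8 including the region at its TSS. Several of these genes are expressed mainly by cells other than CMs. In the marker lists of such cells, 14 of 17 endothelial genes (median 12 control regions) had more control-only than KO-only regions and 0 had the reverse. Of 8 macrophage and lymphocyte genes 5 had more control-only regions and 0 the reverse, of 12 fibroblast genes 7 and 3, of 10 smooth muscle and pericyte genes 4 and 2, and of 8 Schwann cell and neuron genes 3 and 2. Over each whole list, the lost share of control regions was 36.3% for endothelial, 39.5% for macrophage and lymphocyte, 27.3% for fibroblast, 17.2% for smooth muscle and pericyte, and 33.3% for Schwann cell and neuron markers, next to 29.5% over all genes and 27.6% for the sarcomere and Z-disc list. The 1 loss-only gene among these markers was *Col3a1*. Fewer cells of a type and less H3K27ac per cell cannot be told apart in such bulk preparations, and the part of other cells in the lost regions was not tested.

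Most lost regions lay away from promoters, as did most shared control regions of the same genes. A region reached the window from 1000 bp upstream to 100 bp downstream of an annotated TSS in both lists at 142 of the 184 genes (77.2%, 95% Wilson interval 70.6 to 82.6), compared with 70.0% of all genes and 82.8% of the 984 genes that also gained regions. The regions of both lists could lie at different TSSs of a gene and did not have to overlap. The TSS region was listed in control CMs alone at 16 genes (8.70%, compared with 4.21% of all genes and 3.25% of the genes that also gained), which were *Ttc27*, *Msr1*, *Hs1bp3*, *Smoc2*, *Lrig3*, *Arsi*, *Mtcl1*, *Fam114a1*, *Farsb*, *Agfg1*, *Col3a1*, *C1qtnf2*, *Clvs1*, *Pik3r5*, *Fignl1* and *Map2*. *Sdc3*, a syndecan, was the 1 gene with a TSS region in KO CMs alone, compared with 7.19% of all genes, and 25 genes had none in either list. Part of these differences in TSS regions listed in 1 genotype alone follows from the rule, which asks for lost regions and admits no gained ones. Of the 917 lost regions, 36 (3.93%) had their center at a promoter, 438 (47.8%) in an intron of the assigned gene, 383 (41.8%) between genes, 37 in an intron of another gene and 23 in an exon. Control-only regions of all other genes were placed much alike, with 4.48% at promoters, 49.5% in introns of the assigned gene and 37.8% between genes. For shared control regions of the loss-only genes these shares were 6.23%, 52.3% and 35.6%. The median distance to the nearest TSS was 22.5 kb at loss-only genes and 20.7 kb elsewhere.

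Lost regions were short, and few had more than the least support that was required. Their median width was 1085 bp (503 to 7076 bp), compared with 2652 bp for the shared control regions of the same genes. As many as 870 of 917 (94.9%) were merged from 2 peaks, the fewest with which a region could be kept, since a region had to be found in at least 2 of 3 replicates. The share was 94.2% for control-only regions of all other genes and 58.9% for shared control regions at loss-only genes. Thus most lost regions had been called in 2 control replicates and missed in the third. KO regions also had to be found in at least 2 of 3 replicates. A lost region could therefore have been called in a single KO replicate, which the lists do not show. None of the 184 genes would have been selected on lost regions of 3 or more merged peaks, of which there were 47.

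The lost regions lay a median of 7.87 kb from the nearest KO region (5.48 kb for control-only regions of other genes). Within 1 kb of a KO region were 83 of them, and 399 (43.5%) were more than 10 kb away, next to 34.9% elsewhere. Runs of neighboring lost regions with no shared or gained region between them held 700 of the 917 regions (76.3%), and runs of 3 or more held 445 (48.5%), compared with 59.8% and 30.5% of control-only regions at genes that also gained, and 48.7% and 20.3% at all other genes. Part of these differences, in runs and in the distance to the nearest KO region, follows from the rule, which takes genes with several losses and no gain. Loss-only genes were rarely neighbors of each other: only 4 pairs had no other protein-coding gene with a region between them, namely *Cers6* and *Nostrin*, *Ptgfrn* and *Cd2*, *Akap7* and *Epb41l2*, and *Adarb1* and *Fam207a*. The genes lay on all 20 chromosomes examined, from 0.458% of genes with a region on chromosome 16 to 2.50% on chromosome 10.

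The regions that remained showed no common direction of change in length over the loss-only genes. Over all regions, the median covered length per gene was 20.02 kb in control and 14.8 kb in KO CMs, and the log2 ratio (KO over control) had a median of -0.48 (95% interval over genes -0.56 to -0.37) at the 177 genes with a KO region, against 0.05 over all genes. It was below 0 at 163 of the 177. When only shared regions were counted, the ratio was below 0 at 89 genes and above 0 at 88, with an interval of the median from -0.05 to 0.10, against a median of 0.09 over all genes. At single loss-only genes it ranged from -1.25 at *Fam114a1* to 1.97 at *Tmem202*. Over all genes this ratio was below 0 at 4481 and above 0 at 7124. The smaller covered length over all regions is set in large part by the rule, which takes genes with lost and without gained regions.

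**Figure D4:**
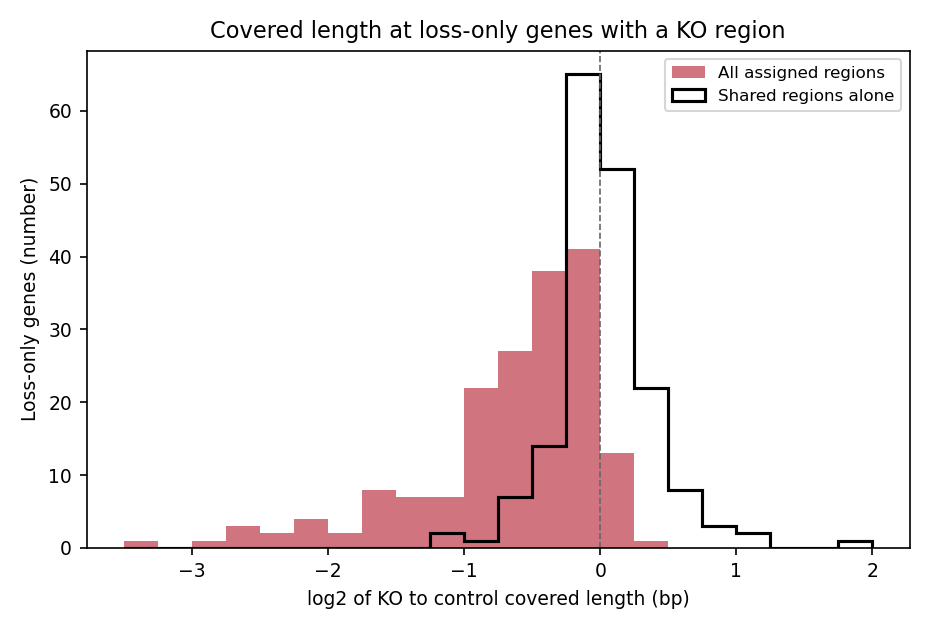
Log2 ratio of the length covered by H3K27ac regions in KO CMs to that in control CMs at the 177 loss-only genes with a KO region (y axis, number of genes). With all regions (filled) 163 genes lie below 0, whereas with shared regions alone (outline) 89 lie below and 88 above.

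Loss-only genes were long and had wide surroundings. Their median length was 69.1 kb (25.1 kb for all genes with a region), and the stretch nearest to their TSS had a median of 188 kb (56.2 kb for all genes). Genes that lost 4 or more and also gained regions were longer still (136.4 kb, with a stretch of 340.6 kb), and the 25 gain-only genes were of much the same length (66.9 kb). Loss-only genes had a median of 5.68 control regions per 100 kb of this stretch, compared with 4.05 for all genes and 5.22 for the genes that also gained. Part of these differences from all genes in length, stretch and density follows from the rule. It admits only genes with at least 4 control regions, whereas all genes had a median of 2.

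The DNA sequence of the lost regions was examined in their central 200 bp. The median GC content was 43.5% at loss-only genes, 44% in control-only regions of other genes, 45% in shared control regions of the same genes and 47% in shared control regions elsewhere. Consensus motifs of factors that act in CMs were searched on both strands. A MEF2 motif was found in 13 of 917 lost regions (1.42%, 95% Wilson interval 0.830 to 2.41), compared with 1.22% of other control-only regions and 1.04% of shared control regions elsewhere. The motif of the estrogen-related receptors ERR, TCAAGGTCA, was found in 5 (0.545%), compared with 0.603% and 0.688%. The NKX2-5 motif, searched as TNAAGTG, was found in 9.71% (7.95 to 11.8), compared with 12.0% and 10.3% of the same sets. For AP-1, the dimer of Fos and Jun proteins, the letters TGANTCA matched 7.31% of the lost regions, 6.86% of other control-only regions and 6.05% of shared ones. For GATA factors the letters AGATAAG matched 3.38%, 3.30% and 3.07%, in the same order. The TEAD motif, with the letters GGAATGT, was found in 3.05%, 3.22% and 2.82%, and the SRF motif in 1.20%, 1.19% and 0.975%. For ETS factors the letters CCGGAAGT matched 0.327%, 0.315% and 0.859%. The cyclic AMP response element (TGACGTCA) was found in 0 of the 917 windows, which allows a share of up to 0.417% by the Wilson interval, and in 0.174% of other control-only regions. For every motif except NKX2-5, the share in other control-only regions lay inside the interval for loss-only genes. In shared control regions of the loss-only genes NKX2-5 was found in 10.45%, which is inside that interval. The intervals treat regions as independent and were not corrected for the number of motifs, so no difference was tested. No searched motif contains another.

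Matches in lost regions of named genes are printed here because MEF2 factors and ERR are central regulators of muscle and of energy metabolism. The matching bases are in capitals, and the sequences are from the RefSeq GRCm38.p6 genome with the strand that carries the match. The first 5 lines are MEF2 matches and the other lines are ERR matches.
*Ghr*, chr15:3407979-3408008, plus strand: aaaatgtaggCTATTTATAGtactgtcttc
*Ccn2*, chr10:24610238-24610267, plus strand: ccctgtgtgcCTATTAATAGcagtattaat
*Lcorl*, chr5:46028637-46028666, plus strand: attgacttttCTATTTATAGagctagagcc
*Nf1*, chr11:79409076-79409105, plus strand: tcctagaattCTATATTTAGgtatatctaa
*Sp8*, chr12:118587629-118587658, plus strand: actactgaatCTAAAAATAGtctgatctta
*Lyn*, chr4:3744009-3744037, plus strand: gagtgactttTCAAGGTCAcaaagctatc
*Cacng3*, chr7:122723582-122723610, minus strand: catagcataaTCAAGGTCAcagagagcta
*Ppp1r9a*, chr6:4960160-4960188, plus strand: tctgtgattaTCAAGGTCActccatggaa

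Lost lengths of genes just inside and just outside the rule overlapped. Among the 95 genes that lost 4 regions, those with the largest lost length were *Rpl36a-ps1* (11880 bp), *Slc38a9* (9302 bp), *Bmt2* (8862 bp), *Fam114a1* (7737 bp) and *Lnx2* (7583 bp). Another 248 genes lost 3 and gained none, led by *Notch2* (8062 bp), *Ppp1r14c* (7944 bp), *Rheb* (7429 bp), *Orc3* (7265 bp) and *Tmeff1* (7202 bp). A single gained region kept out 256 genes, among them *Rapgef5* (15 of 40 control regions lost), *Itpr1* (10 of 34), *Dock4* (14 of 37), *Akap13* (13 of 49) and *Csl* (13 of 26). The lost length of these 5 ranged from 20327 to 23721 bp, and the largest of any loss-only gene was 22367 bp at *Kitl*.

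The number of loss-only genes depended on how regions were listed and assigned. With all annotated genes competing for a region, 112 genes met the rule, 69 of them shared with the 184. With only regions of at least 1000 bp, 71 genes met it and 44 had the opposite pattern. When the control list was reduced to its widest regions so that both lists were equally long, the direction turned, with 54 loss-only and 90 gain-only genes. Only control regions were removed in that setting.

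**Figure D5:**
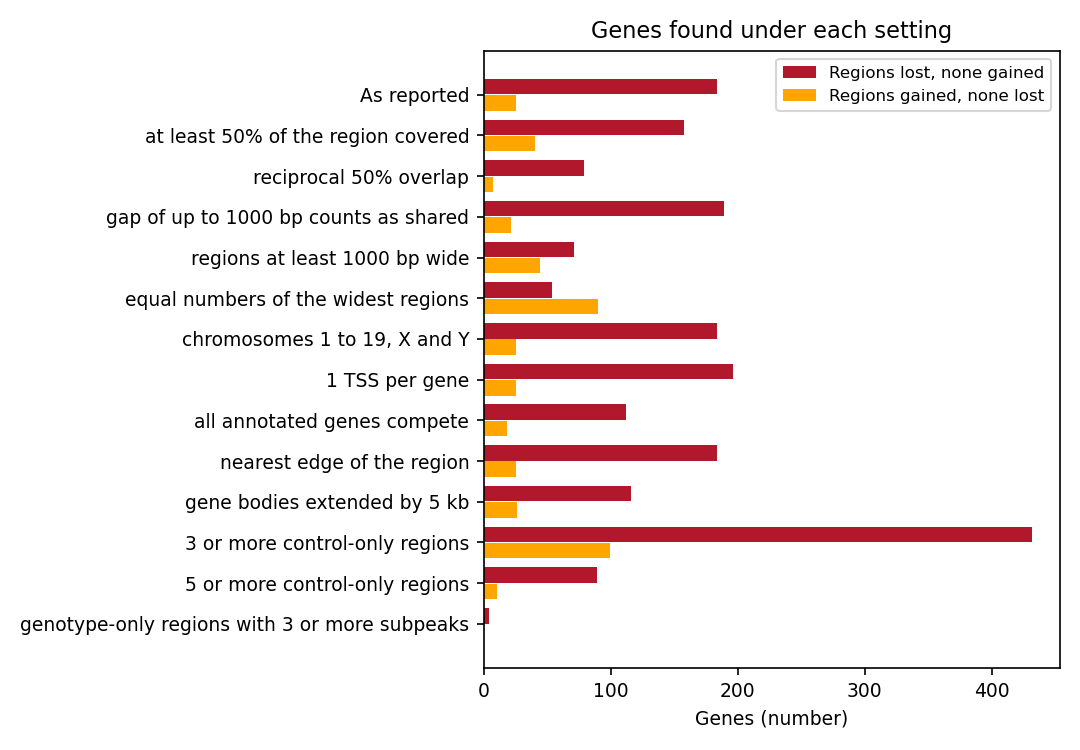
Number of loss-only genes (red, 4 or more regions lost and none gained unless the label gives another number) and of genes with the opposite pattern (orange) under each way of listing, assigning or counting regions. The bars are 184 and 25 as reported, and 54 and 90 with equal numbers of the widest regions.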

How the data were processed

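CMs of both genotypes were profiled by CUT&RUN for H3K27ac, with IgG as background, and samples were grouped by their labels. Reads had been mapped by the authors to GRCm38 (Bowtie2 2.4.2, -N 1). They removed duplicates with SAMtools, called regions for each replicate against IgG with HOMER 4.11.1, and kept merged regions found in at least 2 of 3 replicates; tools and versions are also in the submitters' processing notes. The deposited lists, 1 per genotype, give start and end positions of regions and a score. The score deposited by the authors is 1 for every region and was not used. No values per replicate and no read depths were used, so depth and replicate error are unknown, and a change in signal that did not remove a region was not seen.

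Only chromosomes 1 to 19 and X entered, and 25 control and 18 KO regions elsewhere did not. Each region was assigned by its center to the nearest TSS of any transcript of a protein-coding gene of GENCODE M21. A gene was kept with 4 or more control-only regions (overlap below 1 bp) and 0 KO-only regions. Shares are given with 95% Wilson intervals. The members and gene lists were chosen with earlier results of these data known, and the role groups after the genes were known. Described in full are the 20 genes with the most lost regions, the genes with the largest share lost, the 5 widest lost regions, genes of the lists, neighboring genes and the genes at the border of the rule. Other genes are named as examples of their role, and the results of some single genes are not reported here. Scripts in Python 3.11.15 (numpy 2.4.6, pandas 2.3.3, scipy 1.17.1, matplotlib 3.10.9) were tested on simulated data. Alternatives changed the overlap, width, assignment and count rules.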

Additional observations from a re-analysis of the deposited data

How the results depend on the processing

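Against 184 loss-only genes and 917 lost regions, the rule gave 79 genes and 365 regions with a reciprocal overlap of 50% (58 genes shared with the 184), 71 and 350 with regions of at least 1000 bp (44 shared), 54 and 252 with equal numbers of the widest regions (54 shared), 112 and 547 with all annotated genes competing (69 shared), and 116 and 566 with gene bodies extended by 5 kb (72 shared). Settings with a more similar number of genes also changed which genes they were. There were 158 genes with 50% of a region required to be covered (111 shared) and 196 with 1 TSS per gene (136 shared). With gaps up to 1000 bp counted as shared there were 189 genes (147 shared with the 184). At least 3 or 5 lost regions gave 432 genes with 1661 regions, or 89 with 537, by construction. The share lost was 55.8% with 50% of a region required to be covered, 62.4% with reciprocal overlap, 42.6% with gaps up to 1000 bp counted as shared and 45.6% with regions of at least 1000 bp. Both lists held a region at an annotated TSS at 64.6% of genes with reciprocal overlap and 89.3% with all genes competing. The share was 84.5% with extended gene bodies and 69.7% with 3 or more lost regions. The median log2 covered length was -0.66 with reciprocal overlap. Median gene length was 52.3 kb with reciprocal overlap, 89.4 kb with wide regions, 110.2 kb with all genes competing and 108.7 kb with extended bodies. Requiring 3 or more merged peaks in genotype-only regions was an alternative chosen after seeing the data. It gave 4 genes and 19 regions, 0 of the genes shared with the 184, with 8.84% lost. Both lists held a region at an annotated TSS at 100% of these genes. Their log2 covered length was -0.25 and their length 21.8 kb. The log2 covered length stayed below 0 in each setting, as the rule nearly fixes, whereas loss-only against gain-only genes turned to 54 against 90 with equal numbers of the widest regions. Only 2 genes, *Msra* and *4930402H24Rik*, met the rule in all 9 planned settings that kept the limit of 4 regions and the chromosomes. Assigning by the nearest edge gives the same genes by construction. The cause of the other shifts was not tested. No paired analysis was possible because the files hold 1 merged list per genotype, and for the same reason no replicate could be left out.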
